A study of Mus musculus with 12 samples.

Results

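The response of wild-type (WT) Sol8 cells to the differentiation medium was measured in 6 of the 12 RNA sequencing libraries of the series, 3 of WT differentiated and 3 of WT proliferative cells, chosen by their labels alone. Sol8 is a line of mouse myoblasts derived from the soleus muscle, and the WT cells are the parental line, with no edit of Gne. The differentiated cells, labelled as myotubes, were kept in 2% horse serum and the proliferative cells, labelled as myoblasts, in 10% FCS, so the states differed in the species of the serum as well as its amount. Gne KO libraries of 1 edited clone, again 3 per state, were in the same statistical fit. They enter the SE and p-value of each WT change through the shared spread, and also the mean count of the effect filter. Their own values are given below only where the WT change is set against that of the clone. Total counts were 24991521 to 27112906 in the differentiated and 22950350 to 29389759 in the proliferative WT libraries, and the share of counts from mitochondrial genes was 1.61% to 2.03%. Per-library values are normalized counts, that is, raw counts scaled to a common library size, and are given in the order of replicates 1, 2 and 3. P-values measure the spread between libraries within the WT and Gne KO groups together. The labels call these libraries biological replicates, and all derive from 1 line. In bulk RNA, a different share of cells of one kind and a different level of RNA per cell cannot be told apart.

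Of 20415 genes tested, 3381 (16.6%) rose and 3115 (15.3%) fell in differentiated against proliferative WT cells at an adjusted p under 0.05. The median log2 fold change over all genes was 0.016. Under the stricter filter on effect size, which also sets a lowest mean of 5 normalized counts and a log2 fold change that has to be larger for weakly expressed genes, 377 genes (1.85%) were called higher and 173 (0.847%) lower. All 3 differentiated libraries lay above all 3 proliferative libraries for 25.9% of genes tested and below them for 25.4%. These 6 percentages are the background for the counts of each gene group. Of the 20415 genes, 15497 had a mean of at least 5, and the shares among these alone were not computed. A list of expressed genes that is slightly above the background is therefore not set apart by that. Called genes were larger in effect on the rising side, with a median of 1.88 on the log2 scale among the 377 genes and 1.58 among the 173. Protein-coding genes made up 362 of the called higher and 172 of the called lower genes.

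Myoblasts of a culture leave the cell cycle when serum is withdrawn, and the myogenic bHLH factors MYOD1 and MYOG together with MEF2 proteins then switch on the genes of the contractile apparatus. Myocytes fuse into multinucleated myotubes, a step carried out by the membrane proteins myomaker and myomixer. Sarcomeres, the calcium stores of the sarcoplasmic reticulum and the acetylcholine receptor are built during and after fusion.

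Before the single genes, 1 library needs describing, because it bears on most of the muscle results. Proliferative replicate 1 lay far from proliferative replicates 2 and 3. In a principal component analysis of the 6 WT libraries, the first component held 86.0% of the variance and separated the states, and the second, with 9.32%, placed replicate 1 at 17.2 and replicates 2 and 3 at -8.77 and -8.02. Its distance from the centre of the other replicates of its state, over all 5 components, was 25.6, against 16.6 and 15.8 for replicates 2 and 3 and 9.01 to 11.1 for the differentiated libraries. The centres of the states were 51.9 apart, and replicate 1 was 53.9 from the differentiated centre. Over 10676 genes with a mean of at least 100, the SD of its log2 difference from its fellow replicates was 0.289, against 0.159 and 0.179 for replicates 2 and 3 and 0.0884 to 0.133 for the differentiated libraries. By both measures replicates 2 and 3 were compared with a mean that includes replicate 1. A chi-square per gene between 2 libraries, larger the more their counts differ, was 104 and 62.9 for replicate 1 against replicates 2 and 3. Between replicates 2 and 3 it was 13.1, within the 5.81 to 21.2 of the differentiated pairs. Replicate 1 stood apart from its group by other signs too. It was also the most deeply counted WT library, and the only one of the 6 in which the most abundant gene was not Gm42418 but Col1a2.

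**Figure D1:**
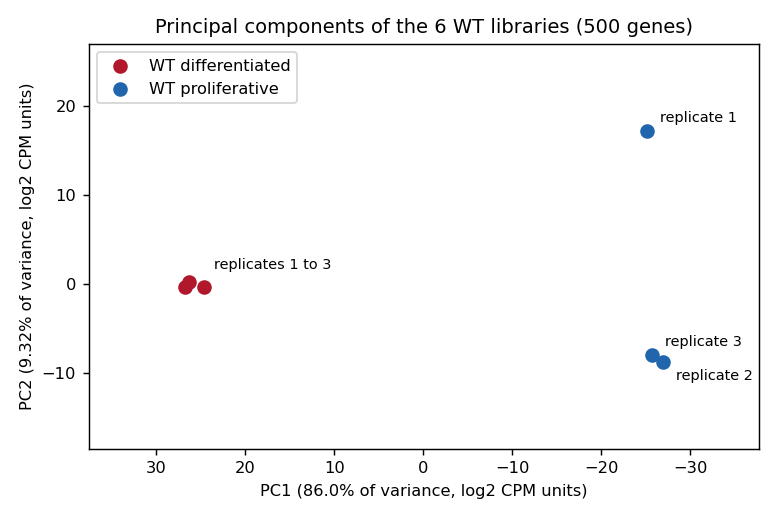
First and second principal components of log2 CPM of the 6 WT libraries over the 500 genes of highest variance, with 1 point per library (differentiated red, proliferative blue). The first component (86.0% of variance) splits the states, and on the second (9.32%) proliferative replicate 1 stands at 17.2, away from replicates 2 and 3 at -8.77 and -8.02.

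The genes by which replicate 1 differed were in large part muscle genes. Its median log2 difference from the mean of replicates 2 and 3 was 1.66 over 25 thick filament genes, 1.52 over 27 thin filament genes, 1.11 over 35 genes of excitation and calcium handling and 0.76 over 37 genes of the Z-disc and costamere, against -0.0038 over all genes with a mean of at least 5. In these 4 lists together, 96 of 124 genes had every differentiated library above proliferative replicates 2 and 3. Replicate 1 exceeded both other proliferative replicates for 90 of the 96, reached the lowest differentiated library for 35 and exceeded every differentiated library for 24. The same counts over all genes were not computed, and choosing genes low in replicates 2 and 3 favours a higher replicate 1. Without that choice, replicate 1 exceeded both for 22 of 25 thick and 21 of 27 thin filament genes. In the excitation list this held for 31 of 35 genes and in the Z-disc list for 31 of 37. A higher level in replicate 1 did not extend to all groups that moved with differentiation. DNA replication genes differed by a median of 0.0039, replication-dependent histones by -0.59 and interferon response genes by -0.24, so that by their medians the histone and interferon lists were lower in replicate 1 while they were higher in differentiated cells. Other lists shifted by smaller medians but in most members. Replicate 1 was above both fellow replicates for 74 of 90 mitosis and 51 of 59 respiratory chain genes, and below both for 72 of 73 ribosomal protein genes. What set this library apart was not tested. Where leaving out this or another WT library changed the call of a gene, or moved its fold change by over 1.5 times, the value without that library is given beside it. Without it 5929 genes passed in place of 6496, and 5433 passed in both fits, all in the same direction. Of the 550 genes called, 472 were also among the 571 called without it.

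**Figure D2:**
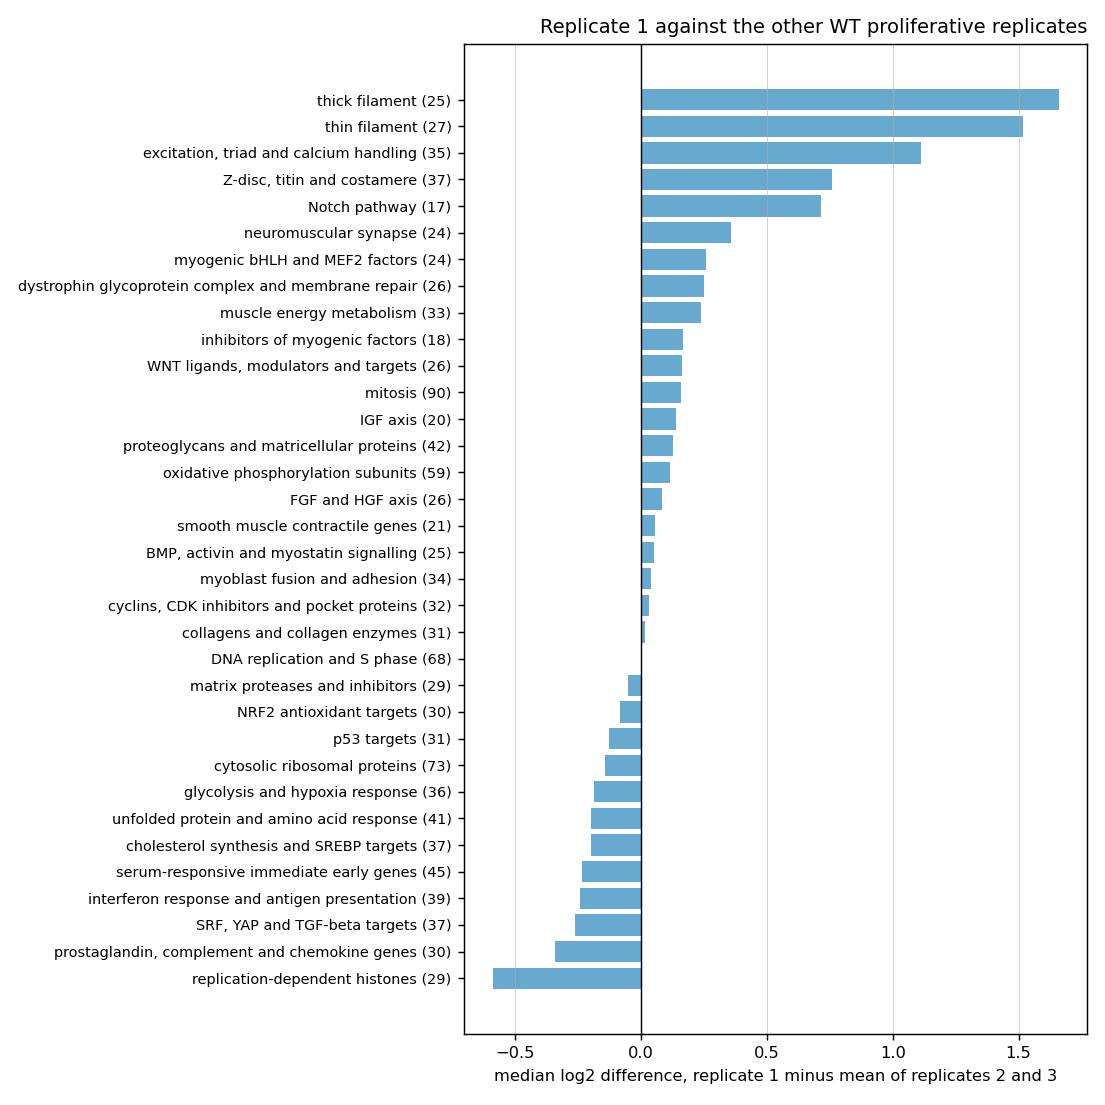
Median log2 difference of WT proliferative replicate 1 from the mean of replicates 2 and 3, 1 bar per gene list, with the number of genes of mean 5 or more in brackets. Bars of the contractile and excitation lists reach 0.76 to 1.66, while DNA replication stands at 0.0039 and histones at -0.59.

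Myogenic factors, their partners and their cofactors did not share one direction. Of 25 myogenic bHLH, MEF2 and partner factors tested, 4 rose and 9 fell, with a median of -0.20, and without proliferative replicate 1 the counts were 8 and 7. Leaving out differentiated replicate 1 or 3 brought the 9 down to 5. The 4 were near the 16.6% of all genes that rose and do not set the list apart. The list also holds coactivators and deacetylases, so members of unlike roles stand in it. Myod1, the factor that commits cells to the muscle lineage, had 1368, 1391 and 1251 normalized counts in differentiated and 3623, 1563 and 1596 in proliferative libraries. Its log2 fold change was -0.65 ± 0.24 (SE, as in all that follow; adjusted p = 0.046), and without replicate 1 it was -0.28 (adjusted p = 0.13). Every differentiated library was below every proliferative one, but most of the distance came from replicate 1. The call was also lost when differentiated replicate 1, 2 or 3 was left out (adjusted p = 0.081, 0.086 and 0.13). Myf5, its close relative in proliferating myoblasts, fell with no such library, at 1377, 1182 and 1478 in differentiated and 2283, 2134 and 2079 in proliferative cells (log2 fold change -0.69 ± 0.10, adjusted p = 8.4e-05). Myog, which drives the onset of differentiation, had 4409, 4565 and 3687 in differentiated and 8857, 2634 and 2447 in proliferative libraries. Replicate 1 was above all 3 differentiated libraries and replicates 2 and 3 below them, so that the groups overlapped and the change did not pass (log2 fold change 0.12 ± 0.35, adjusted p = 0.84). Without replicate 1 Myog passed, at 0.69 (adjusted p = 0.011).

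Mef2c rose most of the list. This MEF2 gene, active in differentiating muscle, had 301, 304 and 268 in differentiated and 175, 59.7 and 45.4 in proliferative libraries (log2 fold change 1.81 ± 0.29, adjusted p = 0.00019), and 2.43 without replicate 1. Mef2a, the member of highest level among those not passing, had 12801, 12671 and 13575 against 14050.0, 8984 and 9261 (log2 fold change 0.30 ± 0.13, adjusted p = 0.098), and it passed at 0.48 without replicate 1 (adjusted p = 0.00098). Among partners of the bHLH factors, Tcf4 rose (log2 fold change 0.88 ± 0.11, adjusted p = 1.5e-05) and Tcf3 fell (log2 fold change -0.28 ± 0.089, adjusted p = 0.026), while Tcf12 was at 0.0011 ± 0.082 (adjusted p = 0.99). The call of Tcf3 was lost without proliferative replicate 2 and without each differentiated replicate (adjusted p of 0.052 to 0.066). Srf, the factor that answers serum and actin signals, had 1775, 1662 and 1621 in differentiated and 2103, 2577 and 2734 in proliferative cells and fell (log2 fold change -0.54 ± 0.11, adjusted p = 0.0018). Also lower were Six4 (-0.43 ± 0.10) and the coactivators Mkl2 (-0.32 ± 0.076) and Vgll3 (-0.56 ± 0.14), whereas Pax3 was at 0.017 ± 0.11 (adjusted p = 0.93). Hdac9, a class IIa deacetylase that binds MEF2 proteins, rose (log2 fold change 0.92 ± 0.23, adjusted p = 0.0051), and so did Eya1, a transcriptional coactivator (log2 fold change 0.49 ± 0.10, adjusted p = 0.002). The related Hdac4 passed narrowly on the lower side (log2 fold change -0.26 ± 0.088, adjusted p = 0.032), a call that was lost without proliferative replicate 1 (-0.19, adjusted p = 0.097), without each differentiated replicate (adjusted p of 0.054 to 0.099) and under library size scaling (adjusted p = 0.13). Myf6, Mef2d, Mkl1, Hdac5 and Eya4 did not pass, with log2 fold changes of -0.20 to 0.57. Of these Mef2d passed at 0.35 without replicate 1 (adjusted p = 0.034), and also in a fit of the 6 WT libraries alone (adjusted p = 0.018). Of 18 inhibitors of the myogenic factors, 4 rose and 2 fell, and the 2 were 1 without differentiated replicate 2 or 3. Twist2, a repressor of myogenic factors, fell (log2 fold change -1.23 ± 0.19, adjusted p = 0.00011), and Bhlhe41 rose (log2 fold change 0.78 ± 0.077, adjusted p = 1.9e-06) with Bhlhe40 (log2 fold change 0.75 ± 0.12, adjusted p = 0.00024).

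**Figure D3:**
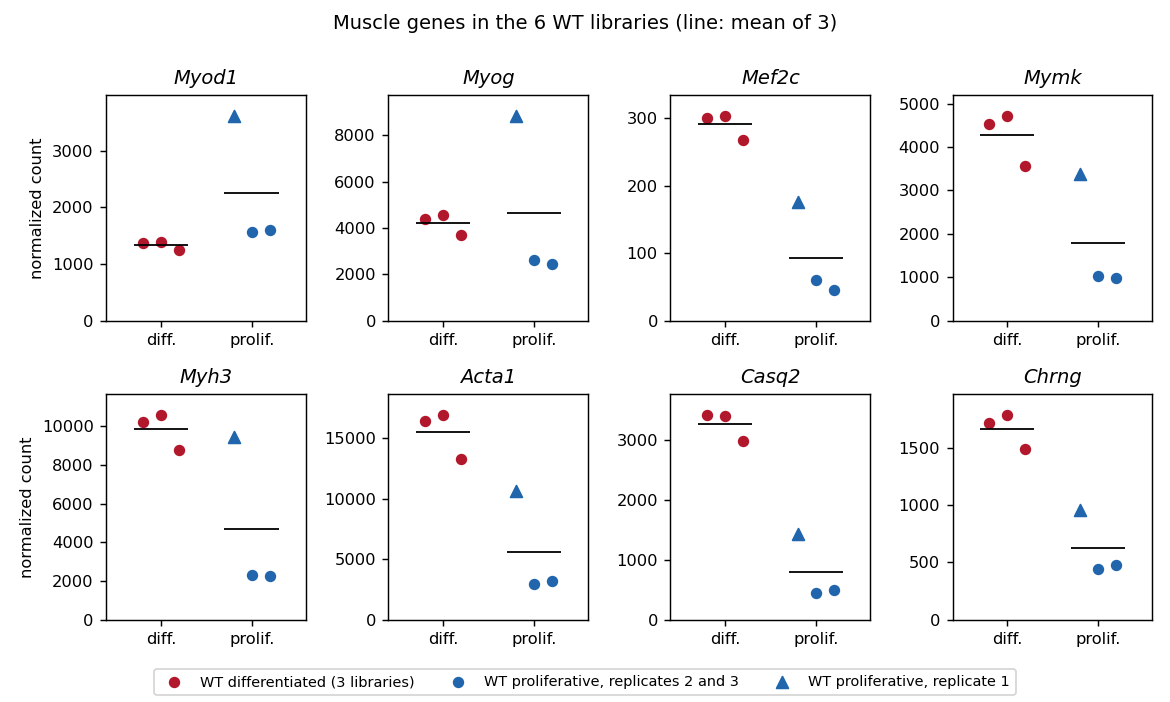
Normalized counts of 8 muscle genes in the 6 WT libraries, differentiated (red) left of proliferative (blue), with proliferative replicate 1 as a triangle and the mean of each state as a line. For Myod1 and Myog the triangle stands above all differentiated libraries, and for Mef2c, Mymk, Acta1, Casq2 and Chrng between the differentiated libraries and proliferative replicates 2 and 3.

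Fusion genes changed in part. Of 37 genes of fusion and adhesion tested, 13 rose and 6 fell (median 0.14). Mymk, which encodes myomaker, had 4537, 4723 and 3552 in differentiated and 3377, 1025 and 993 in proliferative libraries (log2 fold change 1.47 ± 0.32, adjusted p = 0.002), and 2.04 without replicate 1. The groups did not overlap, although the proliferative replicate 1 came close to the lowest differentiated library. Cav3, the muscle caveolin of the T-tubule and sarcolemma, had 129, 119.9 and 84.9 against 33.6, 4.42 and 11.4 (log2 fold change 3.04 ± 0.47, adjusted p = 0.00012), and its change was 3.81 without proliferative replicate 1 and 2.38 without replicate 2. Capn3, a muscle calpain protease, had 56.3, 45.5 and 48.9 against 4.31, 3.31 and 5.68 (log2 fold change 3.38 ± 0.40, adjusted p = 1.0e-05), with the 3 proliferative libraries close together. Elmo1, part of the Rac activator used in fusion, rose as well (log2 fold change 1.82 ± 0.32, adjusted p = 0.0004), by 1.23 without replicate 1. Ehd2, a membrane-shaping ATPase and the member of highest level among those not passing, was at 0.14 ± 0.11 (adjusted p = 0.38).

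Contractile genes had the largest median rises of the lists with more than 3 genes tested. Of 25 thick filament genes 17 rose and 1 fell (median 1.41), and of 28 thin filament genes 17 rose and 4 fell (median 1.26). Without proliferative replicate 1 the counts were 20 and 1 with a median of 1.88, and 20 and 4 with a median of 1.82, while 3 thick filament genes fell without proliferative replicate 2 or 3. Myh4, the heavy chain of fast IIb fibres, rose most of the thick filament list, with 398, 479.5 and 345 in differentiated and 30.2, 5.52 and 12.5 in proliferative libraries (log2 fold change 4.84 ± 0.47, adjusted p = 1.5e-06), and changed by 5.48 without replicate 1. Mybpc1, the slow myosin binding protein C, had 95.5, 128 and 79.9 against 9.49, 2.21 and 1.14 (log2 fold change 4.72 ± 0.50, adjusted p = 3.8e-06), and 5.49 without replicate 1. Both lists hold genes of far higher counts. Myh3, the embryonic heavy chain, had 10219, 10596 and 8788 in differentiated and 9438, 2318 and 2247 in proliferative libraries (log2 fold change 1.41 ± 0.37, adjusted p = 0.0083). Replicate 1 of Myh3 lay within the differentiated range, and without it the log2 fold change was 2.07 (adjusted p = 6.4e-07). The call of Myh3 was lost without proliferative replicate 2 or 3 (adjusted p = 0.056 and 0.053).

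The thin filament showed the same arrangement of libraries. Acta1, the skeletal α-actin, had 16398, 16953 and 13319.8 in differentiated and 10683, 2957 and 3232 in proliferative libraries (log2 fold change 1.72 ± 0.34, adjusted p = 0.0011), and 2.29 without replicate 1. Tnni2 and Tnnc2 encode subunits of the fast troponin complex. Tnni2 had 1634, 1681 and 1409 against 697, 276 and 270.3 (log2 fold change 2.03 ± 0.25, adjusted p = 1.3e-05), and Tnnc2 had 2006, 2084 and 1719 against 972, 304 and 342 (log2 fold change 2.01 ± 0.27, adjusted p = 3.9e-05). For both, replicate 1 was the highest proliferative library and stayed below every differentiated one. Tpm2, which encodes β-tropomyosin, had 9153, 9306 and 8496 against 9806, 6409 and 6225 and did not pass (log2 fold change 0.29 ± 0.20, adjusted p = 0.29). Against the direction of the list, Lmod1, a leiomodin best known from smooth muscle, had 50.6, 36.2 and 52.9 in differentiated and 251, 266 and 270.3 in proliferative libraries and fell (log2 fold change -2.50 ± 0.21, adjusted p = 3.4e-07).

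Of 42 genes of the Z-disc, titin and the costamere, 21 rose and 6 fell (median 0.57, and 0.82 without proliferative replicate 1). The 21 were 11 without proliferative replicate 2 or 3 and 12 without differentiated replicate 1. Actn2, the sarcomeric α-actinin that crosslinks actin at the Z-disc, had 111, 130.1 and 104 in differentiated and 46.6, 7.73 and 13.6 in proliferative libraries (log2 fold change 2.62 ± 0.41, adjusted p = 0.00015), and changed by 3.38 without replicate 1. Myoz2, which binds calcineurin at the Z-disc, rose (log2 fold change 2.59 ± 0.35, adjusted p = 3.4e-05), and so did Smpx (log2 fold change 2.81 ± 0.42, adjusted p = 9.4e-05) and Hspb7, a small heat shock protein (log2 fold change 3.36 ± 0.51, adjusted p = 0.00011). Without replicate 1 the log2 fold changes were 3.24 for Myoz2, 3.64 for Smpx and 4.09 for Hspb7, the last of which was 2.596 without proliferative replicate 3. Ttn, the giant spring of the sarcomere, is given here because of its abundance, having been chosen after its values were seen. It had 56763, 54468 and 53285 in differentiated and 25467, 10999 and 10566 in proliferative libraries (log2 fold change 1.93 ± 0.28, adjusted p = 7.1e-05). Des, the muscle intermediate filament and one of the markers by which the cell type was checked, had 22153, 23024 and 21543 against 26526, 20189 and 20058 and was already at this level in proliferative cells (log2 fold change 0.0095 ± 0.16, adjusted p = 0.97). The other markers, Myod1, Myog, Myh3, Acta1, Mymk and Ckm, were also detected in all 6 libraries, so that both states carried muscle RNA.

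Genes of excitation and calcium release rose next to the sarcomere. Of 36 tested, 18 rose and 2 fell (median 0.67, and 0.86 without replicate 1). Casq1 and Casq2 encode calsequestrins, the calcium-binding proteins of the sarcoplasmic reticulum. Casq1 had 344, 326 and 256 in differentiated and 52.6, 19.9 and 22.7 in proliferative libraries (log2 fold change 3.33 ± 0.30, adjusted p = 6.8e-07), and Casq2 had 3417, 3399 and 2976 against 1428, 449 and 494 (log2 fold change 2.22 ± 0.28, adjusted p = 1.7e-05). Cacna1s, the voltage sensor of the T-tubule, had 703, 636 and 510.2 against 367, 127 and 108 (log2 fold change 1.76 ± 0.30, adjusted p = 0.00029). Kcnj2, an inward rectifier potassium channel whose activity precedes fusion in human myoblasts, rose (log2 fold change 2.13 ± 0.23, adjusted p = 4.3e-06). In contrast, Atp2a2, the calcium pump SERCA2, had 9550.4, 9596 and 8515 against 10725, 10238 and 10404 and did not pass (log2 fold change -0.18 ± 0.073, adjusted p = 0.07).

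At the neuromuscular synapse 10 of 24 genes rose and 3 fell (median 0.21). Ache, the esterase that degrades acetylcholine, had 199, 202 and 153 in differentiated and 28.5, 18.8 and 15.9 in proliferative libraries (log2 fold change 3.10 ± 0.30, adjusted p = 1.8e-06), and Colq, which anchors this enzyme in the synaptic matrix, had 862, 892 and 757 against 186, 116 and 128 (log2 fold change 2.54 ± 0.19, adjusted p = 1.1e-07). Both genes were separated by state in all libraries. Chrng, the γ subunit of the fetal acetylcholine receptor, had 1719.7, 1788 and 1489 against 960.0, 439.8 and 480.4 (log2 fold change 1.47 ± 0.21, adjusted p = 7.7e-05). Among 26 genes of the dystrophin complex and membrane repair, 9 rose and 3 fell (median 0.13). Trim72, which nucleates membrane repair, rose (log2 fold change 1.96 ± 0.26, adjusted p = 3.3e-05). Dmd, the dystrophin gene, had 39.1, 42.7 and 32.9 against 0, 1.1 and 1.14. The differentiated libraries held 120 reads of it in all and the proliferative libraries 2, a ratio of 58.3 with an exact 95% interval of 15.8 to 487 that covers counting error only (adjusted p = 6.2e-06, and 4.4e-05 without proliferative replicate 1).

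The start regions of 3 of these genes are shown because the DNA motif of the myogenic bHLH factors, the E-box CANNTG, occurs in them. They were picked for that motif after the start regions of several genes had been read, and so illustrate it without being evidence for it. The 250 bases before the start of transcription are from RefSeq (GRCm38.p6), 5′ to 3′ on the strand of the gene, with E-boxes in capitals. Myh4 lies on the plus strand at chr11:67237562-67237811, Casq1 on the minus strand at chr1:172219896-172220145 and Chrng on the plus strand at chr1:87205561-87205810. A CAGCTG form of the E-box is present at least once in each.
Myh4: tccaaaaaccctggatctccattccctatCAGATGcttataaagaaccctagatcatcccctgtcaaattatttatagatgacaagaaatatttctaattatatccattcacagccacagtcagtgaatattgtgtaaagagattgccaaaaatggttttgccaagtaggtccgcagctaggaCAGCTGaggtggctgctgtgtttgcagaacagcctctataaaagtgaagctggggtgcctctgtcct
Casq1: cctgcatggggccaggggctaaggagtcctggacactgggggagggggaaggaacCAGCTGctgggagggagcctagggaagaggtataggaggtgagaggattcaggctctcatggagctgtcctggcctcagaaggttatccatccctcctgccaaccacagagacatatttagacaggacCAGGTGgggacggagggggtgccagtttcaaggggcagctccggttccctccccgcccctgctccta
Chrng: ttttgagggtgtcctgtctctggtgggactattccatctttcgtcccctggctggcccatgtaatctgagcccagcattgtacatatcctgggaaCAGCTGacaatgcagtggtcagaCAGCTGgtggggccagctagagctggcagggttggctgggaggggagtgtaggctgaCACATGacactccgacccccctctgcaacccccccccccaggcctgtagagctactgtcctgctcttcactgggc
An E-box, which reads the same pattern on both strands, is present in 66.2% of all 32851 start regions of this length, and the CAGCTG form in 13.0%. The MEF2 motif, searched as CTA and TAG with 4 bases between them and found in 3.2% of all start regions, has no match in these 3. Only these letters were searched. A MEF2 site with other end bases would be missed, so the absence of such a site is not shown. Start regions were found for 55 of the 73 genes of the 4 contractile and excitation lists that rose (75.3%), too few for a comparison of shares, which is void for that reason. A match describes the letters only and not a bound site.

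Enzymes of energy metabolism rose in part. Of 39 muscle isoforms tested, 15 rose and 5 fell (median 0.31), and 3 fell without differentiated replicate 3. Pygm, the muscle glycogen phosphorylase, had 1037, 1136 and 839 in differentiated and 328, 117 and 136 in proliferative libraries (log2 fold change 2.46 ± 0.24, adjusted p = 2.1e-06), and Pgam2, the muscle phosphoglycerate mutase, had 173, 185 and 142 against 101, 24.3 and 26.1 (log2 fold change 1.95 ± 0.36, adjusted p = 0.00064). Ckm, the muscle creatine kinase, had 1276, 1215 and 927 against 716, 189 and 199 (log2 fold change 1.85 ± 0.32, adjusted p = 0.00039). In these 3 genes proliferative replicate 1 was again the highest of its group, and without it Pgam2 changed by 2.66 and Ckm by 2.51. Respiratory chain subunits moved the other way, in small steps. Of 59 tested, 1 rose and 16 fell (median -0.21), and without replicate 1 none rose and 12 fell. The number that fell was 6 without differentiated replicate 3 and 38 in a fit of the 6 WT libraries alone. Cycs, cytochrome c, fell (log2 fold change -0.80 ± 0.12, adjusted p = 9.1e-05), as did Ndufa4 (log2 fold change -0.53 ± 0.12, adjusted p = 0.0025) and the succinate dehydrogenase subunit Sdhb (log2 fold change -0.52 ± 0.11, adjusted p = 0.0021).

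The most uniform fall was in DNA replication. Of 68 genes of replication and S phase tested, 67 fell and none rose (median -0.96), and 66 fell without proliferative replicate 1. Ccne1, cyclin E1, which opens S phase, had 201, 232 and 174 normalized counts in differentiated and 722, 749 and 780.2 in proliferative libraries (log2 fold change -1.89 ± 0.13, adjusted p = 6.3e-08). Orc1, of the origin recognition complex, had 129, 134 and 131 against 411, 438 and 521 (log2 fold change -1.78 ± 0.13, adjusted p = 9.0e-08). Ccne2 (log2 fold change -1.68 ± 0.14, adjusted p = 3.3e-07) and the exonuclease gene Exo1 (log2 fold change -1.64 ± 0.12, adjusted p = 8.0e-08) fell as well. The state groups of these 4 genes were far apart, and replicate 1 stood with replicates 2 and 3. E2f2 was the gene that did not pass, with 751, 779.7 and 696 against 1151, 736 and 701 (log2 fold change -0.19 ± 0.14, adjusted p = 0.35).

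Mitosis genes fell less. Of 90 tested, 73 fell and none rose (median -0.61), and 67 fell without replicate 1. That library was above both fellow replicates for 74 of the 90, with a median log2 difference of 0.16. Mybl2, a component of the complex that activates these genes, had 302, 337 and 297 in differentiated and 981, 984 and 906 in proliferative libraries (log2 fold change -1.62 ± 0.11, adjusted p = 6.3e-08). Plk4, the kinase of centriole duplication, had 832, 742 and 766 against 1898, 1920.4 and 1711 (log2 fold change -1.24 ± 0.15, adjusted p = 1.3e-05), and Trip13, a checkpoint ATPase, had 219, 260.2 and 228 against 677, 751 and 639 (log2 fold change -1.55 ± 0.10, adjusted p = 4.2e-08). Differentiated cultures kept RNA of proliferation genes. Mki67, chosen after its values were seen as the usual marker of cycling cells, had 14687, 14316 and 16509 in differentiated and 23834, 21708 and 19038 in proliferative libraries (log2 fold change -0.50 ± 0.098, adjusted p = 0.0009). Ccnb2, likewise chosen afterwards, had 1265, 1373 and 1353 against 1358, 1229.8 and 1157, with overlapping groups (log2 fold change 0.092 ± 0.090, adjusted p = 0.49), and Ckap5, a microtubule polymerase, was at -0.0035 ± 0.095 (adjusted p = 0.98). Whether a small share of cells still divided or all cells carried less of these RNAs was not tested.

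Start regions of 3 genes that fell are printed because they carry the motifs by which cell cycle genes are known to be timed, namely the E2F site (TTTCGCGC or TTTGGCGC), the CHR element TTTGAA and the CCAAT box, here in capitals on either strand. Orc1 holds an E2F site and CCAAT boxes but no CHR element, Kif15 an E2F site and CHR elements but no CCAAT box, and Cdk1 all 3 kinds. They too were picked for holding such motifs, after other cell cycle genes had been read and passed over. Cdk1, the mitotic kinase, was chosen for its start region after its values were seen (log2 fold change -0.77 ± 0.085, adjusted p = 5.4e-06), and Kif15 is a mitotic kinesin (log2 fold change -1.09 ± 0.13, adjusted p = 1.0e-05). Orc1 is on the plus strand at chr4:108579204-108579453, Kif15 on the plus strand at chr9:122950831-122951080 and Cdk1 on the minus strand at chr10:69352913-69353162. In Kif15 an E2F site and a CHR element adjoin and form 1 capital run.
Orc1: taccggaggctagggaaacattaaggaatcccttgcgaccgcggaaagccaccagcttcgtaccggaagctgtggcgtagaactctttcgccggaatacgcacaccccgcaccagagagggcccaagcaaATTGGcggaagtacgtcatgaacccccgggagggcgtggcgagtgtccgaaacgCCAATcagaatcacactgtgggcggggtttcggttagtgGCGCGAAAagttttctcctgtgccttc
Kif15: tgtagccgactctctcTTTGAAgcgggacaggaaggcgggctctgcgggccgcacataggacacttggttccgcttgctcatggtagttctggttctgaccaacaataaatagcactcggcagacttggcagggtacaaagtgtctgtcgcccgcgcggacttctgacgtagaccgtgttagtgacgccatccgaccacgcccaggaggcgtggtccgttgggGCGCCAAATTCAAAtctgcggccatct
Cdk1: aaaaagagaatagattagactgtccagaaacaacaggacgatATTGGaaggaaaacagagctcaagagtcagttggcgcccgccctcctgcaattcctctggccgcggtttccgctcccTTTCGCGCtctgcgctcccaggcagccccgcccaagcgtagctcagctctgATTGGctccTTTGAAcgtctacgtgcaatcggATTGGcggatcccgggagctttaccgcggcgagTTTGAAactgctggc
Start regions were found for 62 of the 73 mitosis genes that fell (84.9%). Of their 68 windows, 25 (36.8%) held TTTGAA and 46 (67.6%) held CCAAT, against 16.0% and 33.8% of all 32851 windows. E2F sites were in 5.88% and 0.654%. For the replication genes 50 of 67 had a window (74.6%), too few for a comparison of shares. No test was made of these shares, and the windows of a gene with several starts can overlap.

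Cell cycle regulators split in both directions, with 10 of 32 higher and 9 lower. Cdkn1a, the CDK inhibitor p21 that accompanies cell cycle exit of myoblasts, had 10007, 10311 and 8955 in differentiated and 7349, 4584 and 5171 in proliferative libraries (log2 fold change 0.80 ± 0.15, adjusted p = 0.00078). Gadd45a, a growth arrest gene, had 3082, 3244 and 3013 against 1173, 1281 and 1517 (log2 fold change 1.24 ± 0.12, adjusted p = 2.1e-06), and the retinoblastoma relative Rbl2 rose (log2 fold change 0.54 ± 0.076, adjusted p = 5.8e-05) while Rbl1 fell (log2 fold change -0.89 ± 0.087, adjusted p = 1.7e-06). Ccnd1, cyclin D1, fell slightly (log2 fold change -0.40 ± 0.10, adjusted p = 0.007) with its partner Cdk4 (log2 fold change -0.31 ± 0.092, adjusted p = 0.016). The transcription factor genes E2f3 (log2 fold change -0.49 ± 0.084, adjusted p = 0.00034) and E2f6 (log2 fold change -0.55 ± 0.087, adjusted p = 0.00016) fell with them. Cdkn1c, the inhibitor p57, had 299.8, 374 and 303 against 524, 199 and 199.9 and did not pass, since replicate 1 was above all other libraries (log2 fold change 0.19 ± 0.28, adjusted p = 0.67), and it passed without that library at 0.66 (adjusted p = 0.018). Rb1 followed the same pattern, with 2251, 2074 and 2218 against 3024, 1758 and 1704 (log2 fold change 0.058 ± 0.16, adjusted p = 0.82) and 0.30 without replicate 1 (adjusted p = 0.019). Of the growth arrest specific genes, Gas6 (log2 fold change -2.07 ± 0.21, adjusted p = 2.9e-06) and Gas2 (log2 fold change -1.78 ± 0.11, adjusted p = 2.9e-08) fell. Btg2 (0.99 ± 0.15), Mxd4 (0.84 ± 0.098), Mxd1 (0.43 ± 0.12), Ccng2 (0.41 ± 0.10) and Btg1 (0.20 ± 0.067), most of them known as restraints on growth, rose, and Cdkn2c (-0.31 ± 0.086) and Gas1 (-0.27 ± 0.085) fell. Of these calls 3 were narrow. Btg1 (adjusted p = 0.029) lost its call without proliferative replicate 2 or 3 or any 1 differentiated replicate (adjusted p of 0.083 to 0.12). Mxd1 (adjusted p = 0.013) lost it without proliferative replicate 1 or differentiated replicate 3 (adjusted p = 0.071 and 0.063). Gas1 (adjusted p = 0.022) lost it without proliferative replicate 1 or any 1 differentiated replicate (adjusted p of 0.0502 to 0.055). Ccnd2, Ccng1, Gadd45b, Gadd45g, Ccnd3, Cdkn1b, Cdkn2d, Cdk6, Mdm2, E2f4 and E2f5 did not pass, with log2 fold changes of -0.22 to 0.35.

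Histone genes went against the other cell cycle genes. Of 49 replication-dependent histone genes tested, 20 rose and none fell (median 0.85), and 11 rose without proliferative replicate 1 (median 0.66). Hist1h1d, a linker histone gene, had 1081, 823 and 682 in differentiated and 43.1, 126 and 94.3 in proliferative libraries (log2 fold change 3.45 ± 0.50, adjusted p = 7.8e-05). Hist1h2br had 38.2, 46.5 and 25 against 0.863, 5.52 and 5.68 (log2 fold change 3.38 ± 0.67, adjusted p = 0.001), and replicate 1 was the lowest library for both. Without it Hist1h2br changed by 2.52. These transcripts normally end in a stem-loop and carry no poly(A) tail, and the libraries were made with an mRNA kit, so the counts cover the fraction of histone RNA that such a kit takes up. The genes are also near-identical copies of each other, and how reads were divided among them is uncertain.

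**Figure D4:**
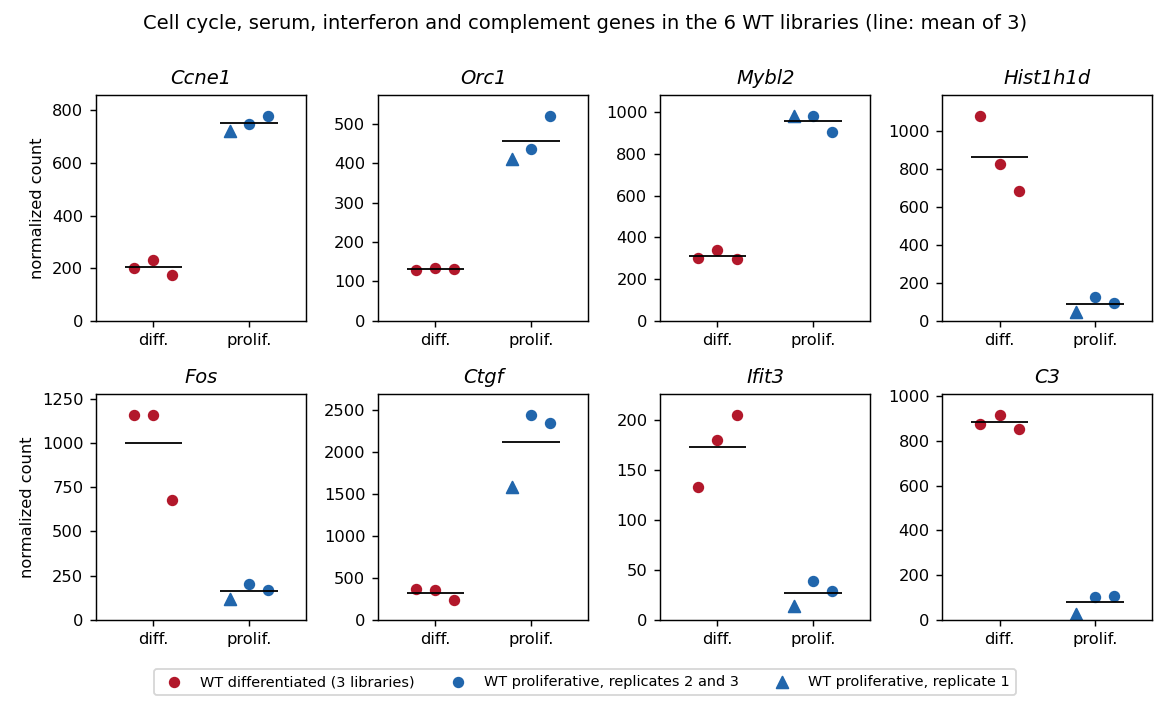
Normalized counts of 8 further genes in the 6 WT libraries, differentiated (red) left of proliferative (blue), with proliferative replicate 1 as a triangle and the mean of each state as a line. Ccne1, Orc1 and Mybl2 are low in the differentiated libraries and replicate 1 stands with its group, while for Hist1h1d, Fos, Ifit3 and C3, high in the differentiated libraries, the triangle is the lowest point, and for Ctgf it is the proliferative library nearest to the differentiated ones.

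Genes that respond to serum moved in opposite ways. Of 46 immediate early genes, which are induced within minutes of a stimulus, 20 rose and 10 fell (median 0.35), and without proliferative replicate 1 the counts were 17 and 13 with a median of 0.067. Fos had 1160.1, 1159 and 679.9 in differentiated and 116, 204 and 167 in proliferative libraries (log2 fold change 2.64 ± 0.38, adjusted p = 6.7e-05), and Fosb had 291, 350.3 and 204 against 31.9, 51.9 and 43.2 (log2 fold change 2.74 ± 0.29, adjusted p = 3.2e-06). Differentiated replicate 3 was the lowest of its group for both and stayed above every proliferative library. Plaur, the urokinase receptor, had 96.4, 108 and 74.9 against 537, 555 and 514 and fell (log2 fold change -2.53 ± 0.14, adjusted p = 1.2e-08). Among 37 targets of SRF, YAP and TGF-β, 5 rose and 16 fell (median -0.26, and 4 and 21 with a median of -0.41 without proliferative replicate 1). The 5 were 3 without proliferative replicate 3 or differentiated replicate 1. Ctgf, a matricellular protein and standard YAP target, had 370.5, 357 and 238 against 1580.2, 2445 and 2341 (log2 fold change -2.71 ± 0.20, adjusted p = 1.1e-07). F3, tissue factor, fell as well (log2 fold change -1.66 ± 0.098, adjusted p = 1.8e-08).

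Contractile genes of smooth muscle fell while those of the sarcomere rose. Of 24 tested, 14 fell and 2 rose (median -0.45, with the same counts without proliferative replicate 1). The 2 that rose were at most 1 when any other library was left out. Cnn1, calponin, had 6.68, 0.929 and 4.99 in differentiated and 275, 193 and 177 in proliferative libraries and showed the most negative change of all 20415 genes (log2 fold change -5.84 ± 0.53, adjusted p = 8.6e-07), which was -5.10 without differentiated replicate 2. Actg2, the enteric γ-actin, had 375, 417 and 318 against 3130.2, 3241 and 3318 (log2 fold change -3.13 ± 0.14, adjusted p = 2.4e-09), with tight values in both states. Lmod1, described above, belongs to this list too.

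**Figure D5:**
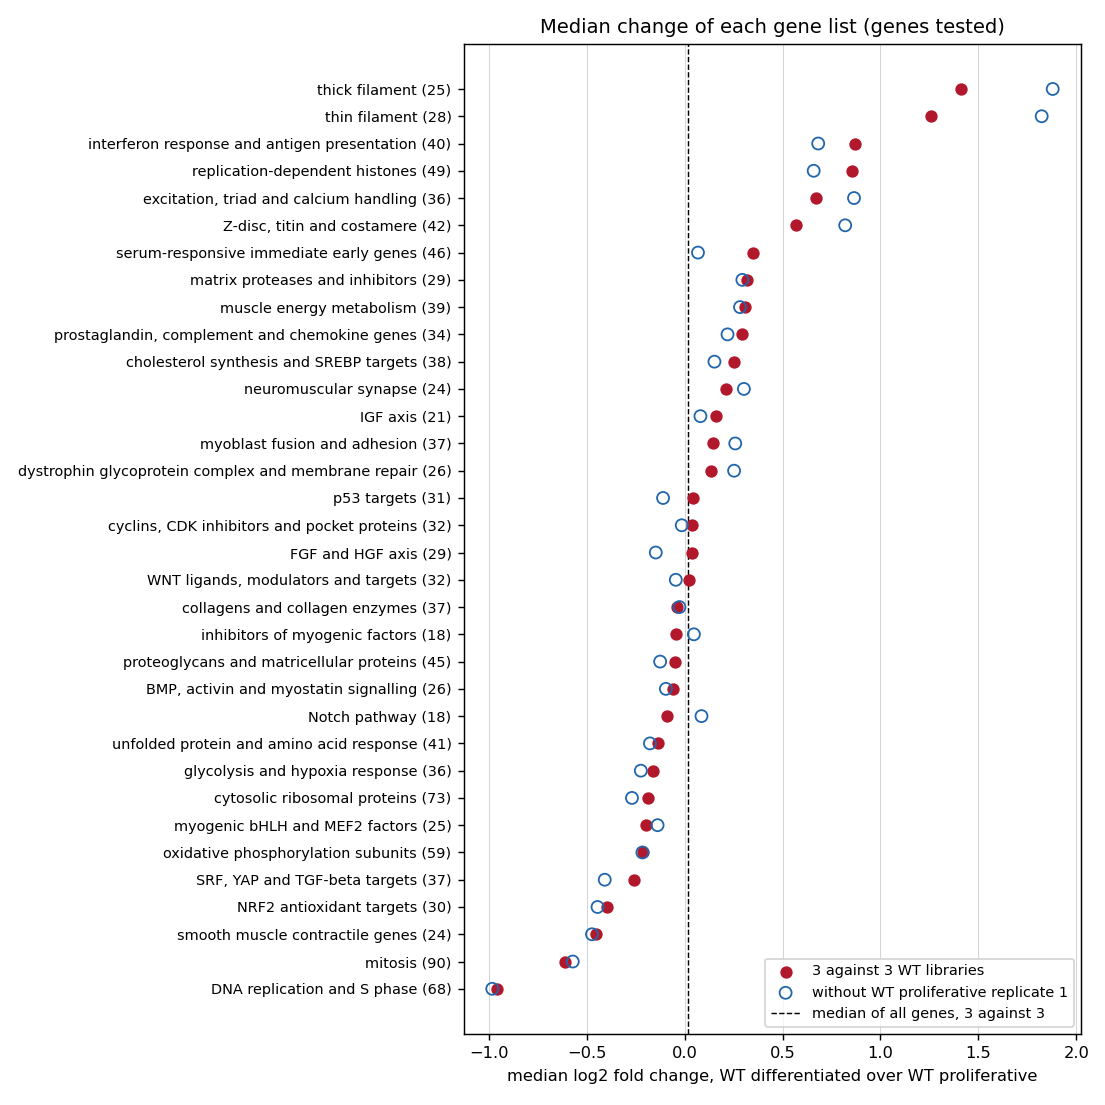
Median log2 fold change of WT differentiated over WT proliferative cells for each gene list, with the number of genes tested in brackets, from 3 against 3 libraries (filled) and without proliferative replicate 1 (open), and the median of all genes as a dashed line. The contractile lists move right when that library is left out (thick filament 1.41 and 1.88), histone, interferon and immediate early lists move left, and DNA replication (-0.96 and -0.98) stays in place.

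Matrix genes changed strongly in both directions, and several stood among the largest changes of all. Of 37 collagen genes and collagen enzymes 10 rose and 9 fell, and of 45 proteoglycans and matricellular proteins 11 rose and 18 fell. Col6a5, a chain of collagen VI, was the gene with the largest rise of all, at 246, 223 and 226 in differentiated and 0.863, 2.21 and 3.41 in proliferative libraries (log2 fold change 6.63 ± 0.47, adjusted p = 7.6e-08). Col8a2 was the opposite case, at 1.91, 3.72 and 4.99 against 178, 177 and 115 (log2 fold change -5.36 ± 0.51, adjusted p = 1.5e-06). Col1a1, the α1 chain of type I collagen and one of the most abundant transcripts, had 40619, 42430.3 and 35378 against 132715, 101646 and 91022 (log2 fold change -1.44 ± 0.12, adjusted p = 3.4e-07). Its partner chain Col1a2 had 214802, 219652 and 192184 against 236912, 210076 and 198176 and did not pass (log2 fold change -0.041 ± 0.094, adjusted p = 0.79). Dcn, decorin, had 3203, 2993 and 2628 against 264, 320.4 and 345 and rose (log2 fold change 3.26 ± 0.14, adjusted p = 1.3e-09). The other small leucine-rich proteoglycans at the extremes fell, Aspn with 41.1, 38.1 and 67.9 against 2662, 1162 and 919 (log2 fold change -4.91 ± 0.49, adjusted p = 2.3e-06) and Fmod with 22, 25.1 and 24 against 422, 206 and 124 (log2 fold change -3.25 ± 0.51, adjusted p = 0.00015), and for both replicate 1 was the highest library. Mgp, the matrix Gla protein, fell (log2 fold change -2.22 ± 0.17, adjusted p = 1.7e-07), and the abundant Bgn, biglycan, was at -0.043 ± 0.13 (adjusted p = 0.84).

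Of 29 matrix proteases and inhibitors 17 rose and 8 fell (median 0.32). Adamts4, which cleaves the proteoglycan aggrecan, had 7010.5, 7286 and 5406 in differentiated and 1633, 1683 and 1898 in proliferative libraries (log2 fold change 1.91 ± 0.14, adjusted p = 1.0e-07), and the related Adamts5 (log2 fold change 1.67 ± 0.17, adjusted p = 2.7e-06) and Adamts15 (log2 fold change 3.90 ± 0.32, adjusted p = 3.3e-07) rose with it. Mmp10, a stromelysin, fell (log2 fold change -1.70 ± 0.16, adjusted p = 1.3e-06), and the gelatinase gene Mmp9 was at -0.024 ± 0.11 (adjusted p = 0.9).

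Growth factor pathways had members in both directions, against 16.6% of all genes higher and 15.3% lower. The numbers of WNT genes that rose and of IGF genes that fell were near those shares and do not set these lists apart. Of 26 BMP, activin and myostatin genes 7 rose and 6 fell, and the BMP antagonists Nog (log2 fold change 2.38 ± 0.38, adjusted p = 0.00016), Chrdl1 (log2 fold change 2.15 ± 0.29, adjusted p = 3.7e-05) and Chrd (log2 fold change 1.22 ± 0.26, adjusted p = 0.002) were among the rises. Of 29 FGF, PDGF and HGF genes 8 rose and 8 fell, and 5 rose without proliferative replicate 2 or 3. Fgf21 had 723, 711 and 566 in differentiated and 250.1, 143 and 199.9 in proliferative libraries (log2 fold change 1.76 ± 0.17, adjusted p = 2.0e-06), while Fgf7, a ligand for epithelial receptors, had 31.5, 25.1 and 38.9 against 173, 146 and 133 (log2 fold change -2.26 ± 0.21, adjusted p = 1.4e-06). The ligand genes Pdgfb (log2 fold change -1.48 ± 0.12, adjusted p = 3.6e-07) and Pdgfc (log2 fold change -1.63 ± 0.11, adjusted p = 4.6e-08) fell. Of 32 WNT genes 6 rose and 8 fell, with Sfrp2, a secreted modulator, at 315, 309 and 368 against 104, 51.9 and 45.4 (log2 fold change 2.34 ± 0.24, adjusted p = 3.1e-06). In the Notch pathway 5 of 18 rose, or 3 without proliferative replicate 2 or 3 or differentiated replicate 1, and 7 fell, or 3 without any 1 differentiated replicate, and Lfng, which glycosylates Notch receptors, was lower (log2 fold change -1.16 ± 0.18, adjusted p = 0.00012). Of 21 IGF genes 6 rose and 4 fell. Pappa and Pappa2 encode related proteases that cleave IGF binding proteins, and Pappa fell (log2 fold change -2.25 ± 0.34, adjusted p = 0.0001) while Pappa2 rose (log2 fold change 1.27 ± 0.13, adjusted p = 2.0e-06). H19, the imprinted noncoding RNA neighbouring Igf2, had 46959, 45504 and 41744 against 89749.8, 43436 and 40132, with replicate 1 far above all other libraries, and did not pass (log2 fold change -0.27 ± 0.29, adjusted p = 0.52).

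Interferon response genes rose in differentiated cells. Of 40 genes of interferon response and antigen presentation tested, 29 rose and none fell (median 0.87), and 23 rose and 1 fell without proliferative replicate 1 (median 0.68). Ifit3, an antiviral effector, had 133, 180.3 and 206 in differentiated and 13.8, 38.7 and 28.4 in proliferative libraries (log2 fold change 2.80 ± 0.37, adjusted p = 3.1e-05). Trim30a had 88.8, 69.7 and 114 against 8.63, 9.94 and 12.5 (log2 fold change 3.07 ± 0.29, adjusted p = 1.4e-06), and Mx2 rose in the same way (log2 fold change 2.39 ± 0.31, adjusted p = 2.5e-05). The abundant B2m, the light chain of MHC class I, was at 0.22 ± 0.14 (adjusted p = 0.25). Replicate 1 was below both of its fellow replicates for 29 of the 39 members with a mean of at least 5. Among all 15497 genes of such a mean it was below both for 6240, and among 73 ribosomal protein genes for 72, so this is not particular to the interferon list.

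Secreted inflammatory genes rose in part, with 13 of 34 prostaglandin, complement and chemokine genes higher and 5 lower (median 0.29). C3, the central complement component, had 878, 918 and 855 in differentiated and 27.6, 104 and 108 in proliferative libraries (log2 fold change 3.78 ± 0.40, adjusted p = 4.0e-06), with a change of 3.02 without proliferative replicate 1, and C1s1, a protease of the classical pathway, had 6153, 6234 and 5479 against 449, 705 and 711 (log2 fold change 3.30 ± 0.16, adjusted p = 2.7e-09). Ptgds, a prostaglandin D synthase, had 730.5, 834 and 674 against 46.6, 23.2 and 29.5 (log2 fold change 4.49 ± 0.30, adjusted p = 4.6e-08). Il15, a cytokine made by muscle, rose at low counts (log2 fold change 2.99 ± 0.36, adjusted p = 1.3e-05). Ccl2 had 5023, 4948 and 4495 against 2249, 4653 and 4806, and only replicate 1 was apart from the other 5 libraries (log2 fold change 0.39 ± 0.22, adjusted p = 0.21).

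Metabolic and stress lists moved less. Of 38 genes of cholesterol synthesis and SREBP 15 rose and 1 fell (median 0.25). Scd1, a fatty acid desaturase, had 23070.1, 22984 and 23665 in differentiated and 13324, 12627 and 12531 in proliferative libraries (log2 fold change 0.86 ± 0.089, adjusted p = 3.2e-06), and Abca1, a cholesterol exporter induced by LXR rather than by SREBP, had 331, 335 and 340.5 against 142, 64.1 and 56.8 (log2 fold change 2.00 ± 0.25, adjusted p = 1.5e-05). Of 30 NRF2 targets 17 fell and 3 rose (median -0.40), among them Gclc, the rate-limiting enzyme of glutathione synthesis, with 815, 810.3 and 806 against 2147, 2358 and 2587 (log2 fold change -1.54 ± 0.096, adjusted p = 2.9e-08), and Nqo1 (log2 fold change -1.18 ± 0.15, adjusted p = 2.3e-05). Aldh3a1 rose against the direction of that list (log2 fold change 1.55 ± 0.18, adjusted p = 8.1e-06), in which 1 gene rose without differentiated replicate 1. Of 41 unfolded protein and amino acid response genes 16 fell and 8 rose, with Cth (log2 fold change -1.70 ± 0.21, adjusted p = 1.9e-05) and the mitochondrial serine enzyme Shmt2 (log2 fold change -1.26 ± 0.14, adjusted p = 5.1e-06) lower. Ribosomal protein genes had 16 of 73 lower and none higher, in steps of at most -0.69 (median -0.19), and pseudogene copies make these counts uncertain. Without proliferative replicate 2 or 3 or differentiated replicate 3, 6, 4 and 7 of them fell. Of 31 p53 targets 9 rose and 7 fell, and of 36 glycolysis and hypoxia genes 6 rose and 9 fell, with 15 lower without proliferative replicate 1. The 6 were near the 16.6% of all genes that rose.

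The remaining genes with the largest changes belong to no list above. Mme, the membrane protease neprilysin, had 1227, 1152 and 1343 in differentiated and 23.3, 119 and 102 in proliferative libraries (log2 fold change 4.32 ± 0.35, adjusted p = 2.7e-07), and changed by 3.44 without proliferative replicate 1. Plxnc1, a semaphorin receptor, had 222, 225 and 169.7 against 15.5, 8.84 and 7.95 (log2 fold change 4.20 ± 0.36, adjusted p = 4.3e-07), and Spib, an ETS factor known from lymphoid cells, had 824, 902 and 832 against 51.8, 66.3 and 63.6 (log2 fold change 3.83 ± 0.18, adjusted p = 2.7e-09). In the same size range were Abi3bp (log2 fold change 4.20 ± 0.49, adjusted p = 9.7e-06), Clca3a2 (log2 fold change 4.15 ± 0.33, adjusted p = 2.1e-07) and Rasgef1b (log2 fold change 3.81 ± 0.34, adjusted p = 8.0e-07). On the falling side, Xist, the noncoding RNA of X inactivation, had 10.5, 13.9 and 29 against 263, 244 and 266 (log2 fold change -3.96 ± 0.27, adjusted p = 5.8e-08), and Cthrc1, a secreted collagen repeat protein, had 106, 67.8 and 89.9 against 1059, 555 and 488 (log2 fold change -2.95 ± 0.30, adjusted p = 2.5e-06). Dact1, a WNT modulator, fell (log2 fold change -3.07 ± 0.26, adjusted p = 3.4e-07), and so did Gpr39 (log2 fold change -2.93 ± 0.33, adjusted p = 6.6e-06). Parm1 had 36.3, 38.1 and 38.9 against 988, 194 and 117 (log2 fold change -2.99 ± 0.77, adjusted p = 0.0072) and Col25a1 12.4, 16.7 and 15 against 299, 69.6 and 42 (log2 fold change -2.78 ± 0.73, adjusted p = 0.0076), where replicate 1 was the highest by far. Without it they changed by -2.02 (adjusted p = 2.2e-05) and -1.90 (adjusted p = 0.001), and Parm1 by -3.59 without proliferative replicate 3.

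Markers of other cell types were read as whole lists. Of 20 immune markers 10 were tested and none passed in either direction, and 6 of the 20 had no count in any WT library, among them Adgre1, Tyrobp and Cd3e; the summed level was 388.4 to 433 in differentiated and 273 to 389.5 in proliferative libraries. Of 12 epithelial markers 3 were tested, 2 rose, 5 had no count (Epcam and Cldn4 among them) and the sum was 79.0 to 120.3 against 29.3 to 36.3. Of 15 endothelial markers 9 were tested, 2 rose and 1 fell, and the sum was 273 to 346 against 493 to 589. Of 16 adipocyte markers 7 were tested, 2 rose and 4 fell, and Adipoq and Cfd had no count, with a sum of 2267 to 2363 against 1641 to 1752. Among 22 markers of bone, cartilage and tendon 17 were tested, 2 rose and 4 fell. Their sum of 13959.8 to 14144 against 32628 to 38555 was carried by Spp1, osteopontin, with 10022, 9636 and 9532 against 28420.1, 34387 and 34559.5 (log2 fold change -1.73 ± 0.089, adjusted p = 5.8e-09). Of 20 neuronal and glial markers 13 were tested, 6 rose and 3 fell, with a sum of 10086 to 11987 against 11361 to 11768. The 17 fibroblast markers, 12 of them tested with 3 higher and 1 lower, summed to 25220.3 to 27221 against 25359 to 26798. Markers of satellite cell quiescence summed to 53743 to 58789 against 33929 to 39141, and of 12 tested 5 rose and 2 fell. Their median log2 fold change was -0.012, so the higher sum was not shared by the typical member. Itga7, a laminin-binding integrin that differentiated muscle also carries, had 17969, 18967 and 15487 against 8205, 7725 and 8196 (log2 fold change 1.12 ± 0.092, adjusted p = 3.4e-07). With 1 library left out, these small counts moved by over 1.5 times for the lower endothelial (1, or 2 without proliferative replicate 2 or differentiated replicate 1), the higher epithelial (2, or 1 without proliferative replicate 2 or 3 or differentiated replicate 1) and the lower fibroblast markers (1, or 2 without proliferative replicate 1). The bone list had 1 higher without proliferative replicate 1, and 1, 2 and 1 lower without proliferative replicate 3, differentiated replicate 2 and differentiated replicate 3. The part of other cells in the results was not tested.

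The change of WT cells was last set against that of the Gne KO clone, in which an effect of the edit and another property of the clone cannot be told apart. The proliferative Gne KO libraries lay far from each other. Measured as above for the WT libraries, the SD of the log2 difference from fellow replicates was 0.121 to 0.134 in the differentiated Gne KO libraries and 0.392, 0.293 and 0.295 in the proliferative ones, at or above the 0.289 of WT proliferative replicate 1. The difference of the 2 responses passed for 41.9% of all genes, and for 36.4% to 48.9% when each of the 12 libraries was left out in turn, so a count of members has to be read against that share. It passed for 7 of 25 thick filament and 7 of 28 thin filament genes, which were 18 and 15 without WT proliferative replicate 1 and 5 to 7 in both lists without any 1 other library. Of 68 DNA replication genes it passed for 51 (45 to 56 with 1 library left out), of 90 mitosis genes for 75 (70 to 82) and of 59 respiratory chain subunits for 44 (34 to 50). In 42 of the 51, 62 of the 75 and all 44, the WT change lay above that of the Gne KO clone. The median log2 fold changes of these 3 lists were -0.96, -0.61 and -0.21 in WT cells. In Gne KO cells they were -1.50, -1.50 and -0.91, so by the medians the clone fell further. Mef2c had a log2 fold change of 1.81 ± 0.29 in WT and -1.36 ± 0.59 in Gne KO cells (adjusted p of the difference = 0.0013), and Myod1 had -0.65 ± 0.24 in WT and -3.27 ± 0.30 in Gne KO cells (adjusted p of the difference = 7.3e-05). For both genes the difference passed without any 1 of the 12 libraries, at 2.79 to 3.80 for Mef2c and 2.42 to 3.00 for Myod1. Myh4 changed by 4.84 ± 0.47 in WT against 0.90 ± 1.25 in Gne KO cells (adjusted p of the difference = 0.026), a call that was lost without Gne KO differentiated replicate 1 or 2 or Gne KO proliferative replicate 1 or 2 (adjusted p of 0.070 to 0.098). For Acta1, at 1.72 ± 0.34 and 1.32 ± 0.54, the difference did not pass (adjusted p = 0.65), but without WT proliferative replicate 1 it was 0.98 and passed (adjusted p = 0.029).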

How the data were processed

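RNA of 12 libraries was sequenced on a NextSeq 500 after preparation with a stranded mRNA kit. In the submitters' processing notes the tools are cutadapt 1.18 and TopHat2 2.1.1, then HTSeq 0.6.1 and DESeq2 1.22.1, with the build GRCm38. How strand was handled in counting is not stated there, which leaves antisense and overlapping genes uncertain. The deposited table holds raw counts of reads per gene for 48586 genes and a question mark for 6252 others, which were left out. Its 12 columns of normalized values and the authors' own 4 comparisons (fold changes and p-values) were not used.

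Genes with at least 10 counts over the 12 libraries were kept. Counts were scaled by the trimmed mean of M values (30% and 5% trimming). They were fitted with limma 3.58.1 (voom, R 4.3.3) with the 4 groups of state and genotype. This took the place of a count model, which the counts kept would also have allowed. Adjusted p-values are Benjamini-Hochberg values over all 20415 genes, from limma's moderated test. The effect filter asks for a log2 fold change beyond 7.5 divided by the square root of the mean normalized count, plus 0.9. Gene lists hold 42 themes. The members and lists were chosen with earlier results of these data known. The naming rule took the 12 largest called increases and decreases with a WT mean of at least 50, the 4 largest passing members of each list with the most abundant one that did not pass, and all myogenic and cell cycle regulators of mean at least 5. Those of its 251 genes described were selected after their values were seen, and a few are not reported here. Settings tried as alternatives were the scaling, the filter, the weights, the libraries in the fit, limma-trend, a replicate block, a GC and length correction and each WT library left out, with each Gne KO library left out for the difference of the responses alone. The procedure was tested on simulated data in which all libraries had the same spread. That test cannot show how it behaves with a library as far off as WT proliferative replicate 1. Read depth limits the precision of low counts, and intervals cover counting error only, since reads without molecular identifiers are not independent molecules.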

Additional observations from a re-analysis of the deposited data

Results flagged for a closer look

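The change with differentiation differed between WT and Gne KO cells, by the interaction of genotype and state, for 88 of the 151 genes given with values above and for 152 of the 251 genes that the naming rule took, against 41.9% of all genes. The naming rule favoured large WT changes, which are part of this difference. A share above that of all genes thus follows in part from the choice and is no result. Each value below is the WT minus the Gne KO log2 change, with an adjusted p under 0.05 from limma. When each of the 12 libraries was left out in turn, all 88 genes kept the direction of the difference and 70 passed each time. The other 18, with the number of the 12 fits in which they passed in brackets, were Actn2 (2), Adamts15 (6), Atp2a2 (3), Ccne1 (3), Chrng (4), Cycs (4), Des (4), Fmod (9), Gas6 (6), Gpr39 (6), Il15 (4), Kcnj2 (10), Kif15 (4), Myh4 (8), Ndufa4 (5), Pgam2 (3), Ptgds (11) and Twist2 (9).

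Among myogenic factors and their inhibitors, the difference was 0.50 for Bhlhe41, 3.17 for Mef2c, 2.62 for Myod1, 0.64 for Srf, 0.50 for Tcf3 and 0.74 for Twist2. On the negative side it was -0.61 for Hdac4, -1.77 for Mef2a, -0.61 for Myf5, -0.85 for Rb1, -1.17 for Six4, -0.82 for Tcf12, -1.21 for Tcf4 and -0.69 for Vgll3.

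Among fusion, contractile, excitation, synapse and membrane genes, the difference was 2.82 for Actn2, 0.29 for Atp2a2, 3.25 for Capn3, 2.98 for Casq1, 1.21 for Chrng, 2.02 for Colq, 0.67 for Des, 4.90 for Dmd, 0.69 for Ehd2, 4.83 for Hspb7, 2.14 for Kcnj2, 3.30 for Lmod1, 4.35 for Mybpc1, 3.94 for Myh4, 2.44 for Pgam2 and 1.48 for Tpm2. On the negative side it was -1.15 for Itga7.

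Among respiratory chain, cell cycle and histone genes, the difference was 2.33 for Ccnb2, 0.50 for Ccne1, 1.00 for Cdk1, 0.90 for Cdk4, 3.10 for Cdkn1c, 1.00 for Cdkn2c, 0.46 for Cycs, 0.82 for Gas1, 3.07 for Hist1h1d, 0.81 for Mxd4, 0.73 for Mybl2, 0.50 for Ndufa4, 0.67 for Sdhb and 0.64 for Trip13. On the negative side it was -1.13 for Ccne2, -1.39 for Gadd45a, -1.64 for Gas2, -2.35 for Gas6, -0.54 for Kif15, -0.79 for Plk4 and -0.41 for Rbl1.

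Among serum response and matrix genes, the difference was 3.51 for Ctgf, 0.63 for F3, 3.74 for Fmod and 1.07 for Mmp9. On the negative side it was -1.24 for Adamts15, -1.13 for Adamts5, -3.34 for Aspn, -1.50 for Col1a1, -2.14 for Dcn, -3.04 for Mgp, -1.26 for Mmp10 and -2.58 for Spp1.

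Among growth factor, interferon, complement and metabolic genes, the difference was 1.48 for Aldh3a1, 1.92 for C1s1, 2.83 for C3, 1.95 for Chrdl1, 2.14 for Fgf7, 3.32 for H19, 2.19 for Lfng, 1.15 for Nqo1, 0.98 for Pdgfb, 1.01 for Scd1, 3.64 for Sfrp2 and 1.60 for Trim30a. On the negative side it was -2.09 for Abca1, -0.998 for Gclc, -1.33 for Il15, -0.81 for Pdgfc and -1.75 for Ptgds.

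Among marker genes of other cells and other genes, the difference was 3.05 for Abi3bp, 3.22 for Clca3a2, 3.69 for Col6a5, 1.39 for Gpr39, 1.91 for Plxnc1 and 2.12 for Spib. On the negative side it was -6.52 for Xist.

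The groups of 3 libraries are too small for the check for single outlying samples. The distance of proliferative replicate 1 is described in the report by other measures.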

How the results depend on the processing

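The total of genes passing was 6496, of which 3381 rose and 3115 fell. With sample quality weights, which gave proliferative replicate 1 a weight of 0.402, 5082 rose and 5013 fell. With 1 library left out, 2469 to 2835 rose and 2474 to 3182 fell, and 341 to 398 were called higher and 170 to 200 lower. The difference of the responses of WT and Gne KO cells passed for 8545 genes, and for 7422 to 9977 with 1 of the 12 libraries left out, where leaving out the Gne KO libraries was added after seeing the data. The remaining settings kept each of these counts within 1.5 times its value, among them a fit of the 6 WT libraries alone (4183 higher and 3980 lower) and library size alone as the scaling (3702 and 2576). In the fit of the WT libraries without proliferative replicate 1, which was added after seeing the data, 4272 rose and 4559 fell.

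Of the 251 genes taken by the naming rule, none that passed turned its direction in any setting tried. Between 0 and 15 lost their call in a setting and between 0 and 29 gained one, most of the gains without proliferative replicate 1 or with less weight on it. Myod1 lost its call in a fit of the WT libraries alone, under both other scalings, without the filter, with limma-trend and without any 1 of 4 libraries, and Parm1 lost it in the WT libraries alone (adjusted p = 0.062). Of genes given with values in the report, B2m, Ehd2 and Atp2a2 passed in the WT libraries alone (adjusted p = 0.00081, 0.0086 and 0.031), and Tpm2 with sample quality weights (adjusted p = 0.00039). Same-numbered libraries of the states did not deviate together (correlations of 0.029, -0.033 and -0.013 over 10676 genes), so the numbers were not taken as pairs. With the replicate block 3016 genes rose and 2813 fell, 5 of the 251 genes lost their call and none gained one. A GC and length correction together with the block gave 3347 and 3566.

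Counts of genes per list that moved by over 1.5 times are given with the count of the fit described in the report in brackets. With sample quality weights the counts were 10 higher (4) for myogenic bHLH and MEF2 factors, 4 lower (2) for the excitation list, 14 higher (9) for dystrophin glycoprotein complex and membrane repair, 5 lower (3) for dystrophin glycoprotein complex and membrane repair, 10 lower (5) for muscle energy metabolism, 35 lower (16) for oxidative phosphorylation subunits, 8 higher (5) for SRF, YAP and TGF-beta targets, 3 lower (1) for cholesterol synthesis and SREBP targets, 20 lower (9) for glycolysis and hypoxia response, 58 lower (16) for cytosolic ribosomal proteins, 2 lower (0) for replication-dependent histones and 2 lower (1) for fibroblast and fibro-adipogenic markers. In the 6 WT libraries alone the counts were 4 lower (2) for the excitation list, 9 lower (5) for muscle energy metabolism, 38 lower (16) for oxidative phosphorylation subunits, 2 lower (1) for cholesterol synthesis and SREBP targets, 50 lower (16) for cytosolic ribosomal proteins and 1 higher (2) for epithelial markers. In the WT libraries alone without proliferative replicate 1 the counts were 9 higher (4) for myogenic bHLH and MEF2 factors, 21 higher (13) for myoblast fusion and adhesion, 3 lower (1) for thick filament, 4 lower (2) for the excitation list, 15 higher (9) for dystrophin glycoprotein complex and membrane repair, 5 lower (3) for dystrophin glycoprotein complex and membrane repair, 9 lower (5) for muscle energy metabolism, 36 lower (16) for oxidative phosphorylation subunits, 3 higher (0) for mitosis, 8 higher (5) for SRF, YAP and TGF-beta targets, 4 higher (2) for smooth muscle contractile genes, 5 lower (1) for cholesterol synthesis and SREBP targets, 2 lower (0) for interferon response and antigen presentation, 11 lower (7) for p53 targets, 19 lower (9) for glycolysis and hypoxia response, 65 lower (16) for cytosolic ribosomal proteins, 1 higher (2) for epithelial markers and 2 lower (1) for fibroblast and fibro-adipogenic markers. With the GC and length correction the counts were 4 lower (2) for inhibitors of myogenic factors, 3 lower (1) for thick filament, 8 lower (5) for muscle energy metabolism, 3 lower (1) for cholesterol synthesis and SREBP targets, 26 lower (16) for cytosolic ribosomal proteins and 2 lower (1) for endothelial markers. With that correction and the replicate block the counts were 3 lower (1) for thick filament, 8 lower (5) for muscle energy metabolism and 1 higher (2) for smooth muscle contractile genes. With the replicate block alone the counts were 3 lower (1) for thick filament and 1 higher (2) for smooth muscle contractile genes. Under library size scaling the counts were 1 lower (2) for inhibitors of myogenic factors, 3 lower (7) for Notch pathway and 10 lower (16) for cytosolic ribosomal proteins. Without a filter the counts were 1 lower (2) for inhibitors of myogenic factors, 3 lower (7) for Notch pathway and 2 lower (1) for cholesterol synthesis and SREBP targets. With a filter of 10 counts in 3 libraries the counts were 2 lower (4) for bone, cartilage and tendon markers, 1 higher (2) for endothelial markers, 2 lower (1) for endothelial markers and 1 higher (2) for epithelial markers. With limma-trend the counts were 1 lower (2) for the excitation list. With 1 library left out the counts ran from 4 to 8 higher for myogenic bHLH and MEF2 factors, from 5 to 9 lower for myogenic bHLH and MEF2 factors, from 1 to 2 lower for inhibitors of myogenic factors, from 1 to 3 lower for thick filament, from 11 to 24 higher for the Z-disc list, from 3 to 5 lower for muscle energy metabolism, from 6 to 16 lower for oxidative phosphorylation subunits, from 3 to 4 higher for SRF, YAP and TGF-beta targets, from 0 to 2 higher for smooth muscle contractile genes, from 3 to 6 higher for Notch pathway, from 3 to 6 lower for Notch pathway, from 5 to 8 higher for FGF and HGF axis, from 1 to 3 higher for NRF2 antioxidant targets, from 7 to 15 lower for glycolysis and hypoxia response, from 4 to 24 lower for cytosolic ribosomal proteins, from 11 to 19 higher for replication-dependent histones, from 1 to 2 higher for bone, cartilage and tendon markers, from 1 to 4 lower for bone, cartilage and tendon markers, from 1 to 2 lower for endothelial markers, from 1 to 2 higher for epithelial markers and from 1 to 2 lower for fibroblast and fibro-adipogenic markers.

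The direction turned in at least 1 setting only for genes that passed neither there nor in the fit described in the report. Under library size scaling the log2 fold change was 0.0050 for Bgn, 0.043 for Ckap5, 0.0056 for Col1a2, 0.032 for E2f4, 0.023 for Mmp9, 0.010 for Phldb2 and 0.016 for Runx2. With the GC and length correction the log2 fold change was -0.057 for Ccnd3, 0.0034 for Ckap5, -0.067 for Des and -0.067 for Gadd45g. With that correction and the replicate block the log2 fold change was -0.059 for Ccnd3, 0.0035 for Ckap5, -0.067 for Des and -0.066 for Gadd45g. In the 6 WT libraries alone the log2 fold change was 0.0077 for Ckap5. With median-of-ratios size factors the log2 fold change was 0.0052 for Ckap5. With a filter of 10 counts in 3 libraries the log2 fold change was 0.0030 for Ckap5. In the WT libraries alone without proliferative replicate 1 the log2 fold change was 0.032 for Ckap5, 0.032 for Col1a2, 0.047 for E2f2, -0.052 for Gadd45g, 0.098 for H19, -0.10 for Mdm2 and -0.0039 for Pax3. With sample quality weights the log2 fold change was 0.024 for Col1a2, 0.0056 for H19 and -0.063 for Mdm2. With limma-trend the log2 fold change was -0.00013 for Gadd45g. Without a filter the log2 fold change was -0.0025 for Tcf12. With 1 library left out it was -0.0068 to 0.58 for Ccl2, -0.15 to 0.26 for Ccnd3, -0.36 to 0.093 for Cd34, -0.051 to 0.66 for Cdkn1c, -0.044 to 0.013 for Ckap5, -0.098 to 0.018 for Col1a2, -0.059 to 0.11 for Des, -0.32 to 0.013 for E2f2, -0.048 to 0.0092 for E2f4, -0.091 to 0.15 for Gadd45g, -0.49 to 0.064 for H19, -0.14 to 0.15 for Mdm2, -0.21 to 0.69 for Myog, -0.040 to 0.066 for Pax3, -0.11 to 0.021 for Phldb2, -0.087 to 0.30 for Rb1 and -0.037 to 0.025 for Tcf12. In the fit described in the report the values were -0.043 for Bgn, 0.39 for Ccl2, 0.018 for Ccnd3, -0.062 for Cd34, 0.19 for Cdkn1c, -0.0035 for Ckap5, -0.041 for Col1a2, 0.0095 for Des, -0.19 for E2f2, -0.015 for E2f4, 0.0019 for Gadd45g, -0.27 for H19, 0.059 for Mdm2, -0.024 for Mmp9, 0.12 for Myog, 0.017 for Pax3, -0.037 for Phldb2, 0.058 for Rb1, -0.031 for Runx2 and 0.0011 for Tcf12.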
